A study of Homo sapiens with 60 samples.

Results

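Brush border and absorptive identity genes of the intestinal epithelium, 10 in number, were followed through 60 RNA-seq libraries of HT29 cells, a line from a human colorectal adenocarcinoma, exposed to herbal extracts for 24 h. The genes were VIL1, CDX1, CDX2, CDH17, LGALS4, KRT20, FABP1, ANPEP, DPEP1 and MYO1A. They were chosen by name, as the rows of the count table whose Ensembl IDs carry these symbols, and each matched 1 of the 60675 rows. Of the 10 genes, 9 passed the filter on low counts and were tested. ANPEP did not pass and is given by its level only.

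Water extracts of Yijin-tang and of Soshiho-tang and ethanol extracts of Schisandrae Fructus, Liriopis seu Ophiopogonis Tuber, Zizyphi Semen and Longan Arillus were given at 20, 100 and 500 µg/mL, called low, medium and high dose. Polygalae Radix, also extracted with ethanol, was given at 15.2, 76 and 380 µg/mL and the ethanol extract of Aucklandiae Radix at 14.8, 74 and 370 µg/mL. There were 2 libraries per dose for Soshiho-tang, 1 for Polygalae Radix and Aucklandiae Radix, and 3 for the others. The 3 vehicle libraries came from cells given DMSO, at 0.1% per the sample labels and at 2% per the series description, and the labels used here give no DMSO percentage for the extract libraries. Library names place the extracts in 4 sets (Yijin-tang and Soshiho-tang; Liriopis seu Ophiopogonis Tuber and Schisandrae Fructus; Longan Arillus and Zizyphi Semen; Polygalae Radix and Aucklandiae Radix), with the vehicle in a set of its own. Extract and library set therefore cannot be told apart in comparisons with the vehicle, while comparisons of high with low dose, or of 2 extracts of a set, lie inside a set. All comparisons with the vehicle share its 3 libraries. HT29 is a single cancer line, and nothing in the labels says that libraries of a group came from separate cultures, so p-values measure the spread between libraries only.

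The absorptive cell of the gut carries a brush border, a carpet of microvilli built on actin bundles. Villin (VIL1) binds and bundles that actin, and myosin 1a (MYO1A) tethers the bundles to the membrane. The homeobox factors CDX1 and CDX2 set the intestinal programme and bind AT-rich sites in genes such as FABP1 and CDH17. Keratin 20 (KRT20) is a filament protein of mature surface cells, galectin 4 (LGALS4) a lectin of apical lipid rafts, liver-type fatty acid binding protein (FABP1) a carrier of absorbed fatty acids, and cadherin 17 (CDH17) an adhesion protein of the lateral membrane. Aminopeptidase N (ANPEP) and dipeptidase 1 (DPEP1) are peptidases of the outer cell surface.

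Promoter sequences of 4 members, KRT20, FABP1, CDX2 and LGALS4, are shown, a choice among the members with a RefSeq entry. Each is the stretch from 250 bases before to 50 bases after the RefSeq gene start on GRCh38.p14, read 5′ to 3′ on the gene's own strand. RefSeq entries were found for 7 of the 10 members. Capitals mark TTTAT, the core of the CDX motif, and its reverse complement ATAAA, which next to the start site can also be part of a TATA box.
KRT20 (chr17:40885193-40885492, minus strand): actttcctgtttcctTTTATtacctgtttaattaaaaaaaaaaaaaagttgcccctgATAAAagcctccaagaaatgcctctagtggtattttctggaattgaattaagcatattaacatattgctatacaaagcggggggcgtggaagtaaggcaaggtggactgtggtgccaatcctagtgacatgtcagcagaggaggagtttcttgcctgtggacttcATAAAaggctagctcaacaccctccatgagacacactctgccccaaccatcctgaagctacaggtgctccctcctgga
FABP1 (chr2:88128013-88128312, minus strand): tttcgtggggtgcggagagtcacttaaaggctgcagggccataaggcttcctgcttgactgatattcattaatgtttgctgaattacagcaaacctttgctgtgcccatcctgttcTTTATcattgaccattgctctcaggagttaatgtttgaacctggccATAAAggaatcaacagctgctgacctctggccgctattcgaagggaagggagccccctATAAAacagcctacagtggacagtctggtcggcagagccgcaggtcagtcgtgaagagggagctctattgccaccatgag
CDX2 (chr13:27969266-27969565, minus strand): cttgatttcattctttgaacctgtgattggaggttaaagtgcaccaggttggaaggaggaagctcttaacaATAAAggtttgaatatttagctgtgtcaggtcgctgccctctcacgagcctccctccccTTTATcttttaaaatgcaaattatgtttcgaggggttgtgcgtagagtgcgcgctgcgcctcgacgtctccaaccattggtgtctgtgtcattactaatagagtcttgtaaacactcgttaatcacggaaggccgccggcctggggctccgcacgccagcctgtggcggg
LGALS4 (chr19:38812896-38813195, minus strand): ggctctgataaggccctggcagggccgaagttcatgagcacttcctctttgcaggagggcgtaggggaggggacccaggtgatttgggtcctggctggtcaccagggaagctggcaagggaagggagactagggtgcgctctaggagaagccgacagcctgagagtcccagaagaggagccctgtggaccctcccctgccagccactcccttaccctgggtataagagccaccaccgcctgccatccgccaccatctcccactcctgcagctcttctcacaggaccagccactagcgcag
TTTAT was found on either strand 3 times in the KRT20 window, 3 times in that of FABP1 and 2 times in that of CDX2, and 0 times in that of LGALS4. Windows of this length held it in 34.9% of 35116 RefSeq promoters. GCGTG, the core bound by the aryl hydrocarbon receptor, occurred once in the KRT20 and CDX2 windows and in 36.5% of all promoters. Members whose windows are not shown also held matches, TTTAT for MYO1A and DPEP1 and GCGTG for DPEP1 and ANPEP. These matches describe letters in a window and say nothing about binding.

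Levels are CPM, counts set to a common library size by TMM, which corrects for library composition, and a gene was called changed at a Benjamini-Hochberg adjusted p under 0.05 in edgeR's quasi-likelihood test over 16890 genes. Library totals ranged between 18161717 and 35128954 expected counts. Epithelial markers were present in all libraries, and the summed level of 6 epithelial markers (EPCAM, CDH1, KRT8, KRT18, KRT19 and GPA33) was 8212 to 18102 CPM. A library that stands apart is Yijin-tang low dose replicate 2, in which the log2 deviations of genes from the group mean had an SD of 1.06, while libraries outside that group reached 0.51 at most. Another is Soshiho-tang high dose replicate 3, in which 8 blood and leukocyte markers, without LYZ and CD74 that HT29 cells also expressed, summed to 23.9 CPM, against 0.101 to 1.06 CPM in the other 59 libraries. Results were therefore also computed without these 2 libraries. That fit tested 17330 genes, estimated a smaller spread between replicates and called more genes in most comparisons.

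In vehicle cells the 10 genes spanned 3 orders of magnitude. Per kilobase of exon, LGALS4 had the highest level at 171 ± 8.07 CPM per kb (SD, n = 3), followed by KRT20 at 130 ± 6.96 and VIL1 at 23.6 ± 0.207 CPM per kb. DPEP1 followed at 7.79 ± 0.308 CPM per kb. CDX2 was at 1.10 ± 0.104 CPM per kb, CDH17 at 0.730 ± 0.178, CDX1 at 0.490 ± 0.0572 and FABP1 at 0.441 ± 0.0550 CPM per kb. The neighbours CDX1 and FABP1 differed by less than their spread. MYO1A at 0.183 ± 0.0111 and ANPEP at 0.0382 ± 0.0135 CPM per kb were the lowest. The length used was the union of all annotated exons of a gene, such as 2470 bases for FABP1 and 6920 for VIL1. It is not the length of 1 transcript, and the order of the members depends on it. VIL1 had the smallest coefficient of variation over the vehicle libraries, 0.877%, against 24.3% for CDH17 and 35.3% for ANPEP. With 3 libraries such a value is loosely estimated, so the narrow vehicle range of VIL1 is a weak yardstick for other groups.

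**Figure D1:**
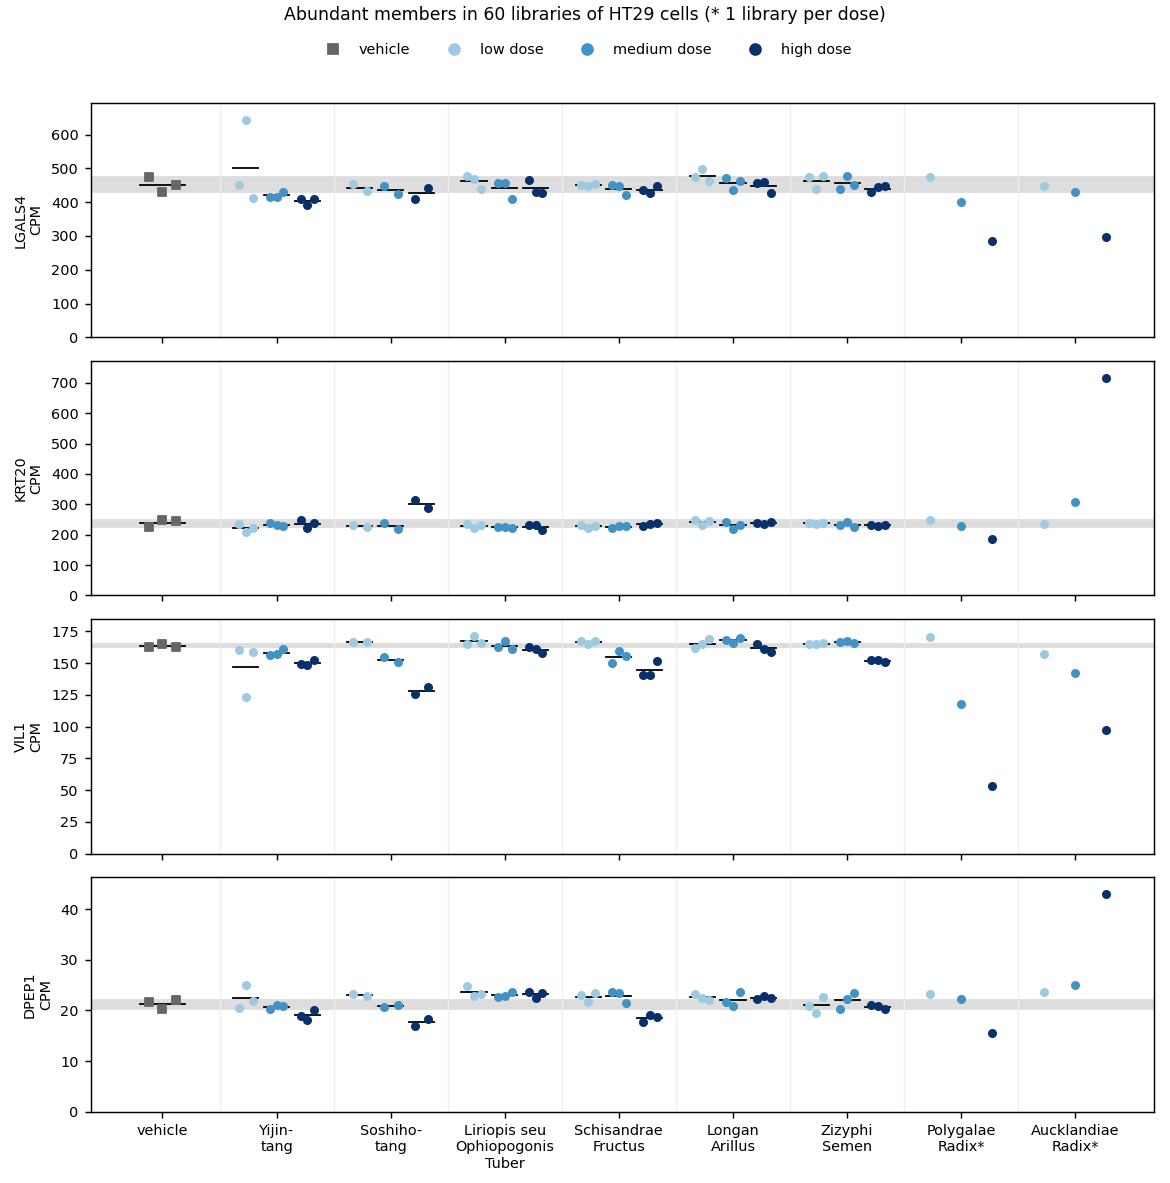
Level (CPM, linear axes from 0) of LGALS4, KRT20, VIL1 and DPEP1 in each of the 60 libraries, with the vehicle at the left and low, medium and high dose from left to right within each extract. Points are libraries, short lines group means, the grey band the range of the vehicle libraries. VIL1 lay below the band at the high dose of 7 of 8 extracts, by a slight margin for Liriopis seu Ophiopogonis Tuber. The share of all genes that did so is not given. KRT20 stood above the band at the high doses of Aucklandiae Radix (715 CPM) and Soshiho-tang.

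The library given 370 µg/mL Aucklandiae Radix showed the widest split among the members. KRT20 and DPEP1 were higher than in vehicle cells, LGALS4 and VIL1 were lower, and the transcription factors CDX1 and CDX2 together with FABP1 and MYO1A were lower still. With 1 library per dose there is no replicate check and no test, and the intervals given are exact Poisson intervals at the 95% level that cover counting error only. At this dose 6 of the 9 tested members lay at least 2-fold from the vehicle mean, where 17.3% of all 16890 genes did.

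KRT20, the surface-cell keratin, had 225, 249 and 246 CPM in the vehicle libraries, then 235, 309 and 715 CPM at 14.8, 74 and 370 µg/mL Aucklandiae Radix. Its level at the highest dose was 2.98-fold that of the vehicle mean (2.94 to 3.03). The medium dose also lay above every vehicle library. DPEP1, the surface dipeptidase, had 21.6, 20.4 and 22.0 CPM in vehicle cells, then 23.7, 25.1 and 43.0 CPM at the same doses, a ratio of 2.01 at the highest dose (1.89 to 2.14). It passed 2-fold by little: scaled by library totals, or without vehicle replicate 2, the number of members past 2-fold was 5 in place of 6.

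The intestinal transcription factor CDX2 had 4.55, 4.11 and 4.97 CPM in vehicle cells, then 5.11, 4.12 and 1.19 CPM at rising doses of Aucklandiae Radix. The highest dose rests on 28 counts and lay at 0.261 of the vehicle mean (0.174 to 0.378). CDX1 had 0.747, 0.935 and 0.903 CPM in vehicle cells, then 0.760, 0.547 and 0.0849 CPM at these doses. Its highest dose rests on 2 counts and lay at 0.0985 of the vehicle mean (0.0119 to 0.356). FABP1, the fatty acid carrier, had 1.19, 0.935 and 1.15 CPM in vehicle cells, then 1.07, 0.985 and 0.127 CPM at these doses, which with 3 counts at the highest dose is 0.117 of the vehicle mean (0.0241 to 0.341). MYO1A, the microvillar myosin, had 0.781, 0.785 and 0.868 CPM in vehicle cells, then 0.760 and 0.766 CPM at the low and medium dose and 0 counts at the highest. The upper end of the Poisson interval of this count of 0 lay at 0.193 of the vehicle mean of MYO1A. CDX1, FABP1 and MYO1A thus all lay below each of the other 59 libraries at the highest Aucklandiae Radix dose, and so did CDX2.

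LGALS4, the raft lectin, had 474, 431 and 451 CPM in vehicle cells, then 449, 431 and 297 CPM at rising doses of Aucklandiae Radix. VIL1 had 163, 165 and 163 CPM in vehicle cells, then 157, 142 and 97.0 CPM at these doses. Both stayed within 2-fold, and VIL1 lay under every vehicle library at all 3 doses. CDH17, the intestinal cadherin, had 2.49, 2.95 and 2.97 CPM at rising doses and remained inside the vehicle range of 2.33 to 3.63 CPM. At 14.8 µg/mL, 1.94% of all genes lay past 2-fold and at 74 µg/mL 2.45%, with 0 members among them at either dose. In the same library of the highest dose PECAM1, an adhesion protein of endothelium and platelets, had 8.82 CPM against 1.22 ± 0.293 CPM in vehicle cells. A list of 8 fibroblast and endothelial markers that includes PECAM1 summed to 13.2 CPM against 3.13 to 4.00 CPM. Most of that sum was PECAM1 and COL1A1 (3.22 CPM). Of the 8 markers 4 were above 0 in this library, against 5, 6 and 4 in the vehicle libraries. Whether these moved with the members for a shared reason was not tested.

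**Figure D2:**
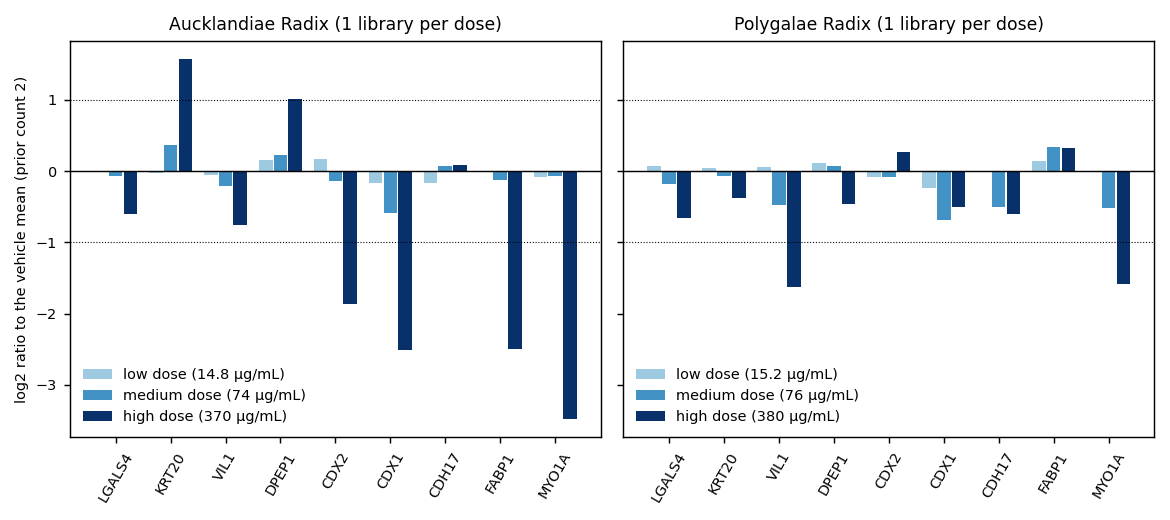
Log2 ratio to the mean of the 3 vehicle libraries (vertical axis, CPM with a prior count of 2) of the 9 tested members at 3 doses of Aucklandiae Radix, left, and Polygalae Radix, right, with 1 library per dose. Dotted lines mark 2-fold. KRT20 and DPEP1 pass it upwards at the highest Aucklandiae Radix dose, while at the highest Polygalae Radix dose VIL1 and MYO1A lie below it; MYO1A had 0 counts at 370 µg/mL Aucklandiae Radix, so that bar depends on the prior count.

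With Polygalae Radix, villin lay furthest below the vehicle among the abundant members. VIL1 had 163, 165 and 163 CPM in the vehicle libraries, then 171, 118 and 53.1 CPM at 15.2, 76 and 380 µg/mL. The highest dose was the lowest VIL1 level of all 60 libraries, 3.08-fold under the vehicle mean, and the ratio of 0.325 has a counting interval of 0.309 to 0.342. MYO1A, the microvillar myosin, had 0.781, 0.785 and 0.868 CPM in vehicle cells, then 0.803, 0.544 and 0.219 CPM at these doses. Its highest dose rests on 6 counts, a ratio of 0.269 (0.0988 to 0.586). These 2 were the members past 2-fold at 380 µg/mL, where 3.90% of all genes were. At 15.2 µg/mL 2.49% and at 76 µg/mL 2.52% of genes were past 2-fold, and 0 members were.

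Less than 2-fold away at 380 µg/mL, LGALS4 had 285 CPM, KRT20 185 CPM, DPEP1 15.5 CPM, CDH17 1.82 CPM and CDX1 0.583 CPM, and each of these lay below all 3 vehicle libraries. The share of all genes that did so in this single library is not given here, so this only describes levels. Other summed levels were low in the same library: the 6 epithelial markers reached 8212 CPM, against 11718 to 13808 CPM in vehicle cells, 6 hepatocyte markers 211 CPM against 346 to 384 CPM, and 10 blood and leukocyte markers, led by LYZ, 958 CPM against 1463 to 1545 CPM. Each of these sums was the lowest of the 60 libraries, and their part in the member levels was not tested. CDX2 had 5.50 CPM at 380 µg/mL Polygalae Radix against 4.11 to 4.97 CPM in vehicle cells, and FABP1 had 1.38 CPM against 0.935 to 1.19 CPM. The Polygalae Radix and Aucklandiae Radix doses differ, so their values stand side by side with no test between these extracts. USP37, whose exons overlap those of VIL1 on the opposite strand, had 26.7 CPM at 380 µg/mL Polygalae Radix and 20.8 CPM at 370 µg/mL Aucklandiae Radix, against 22.1, 23.4 and 23.6 CPM in vehicle cells. It thus lay above every vehicle library at that Polygalae Radix dose and below every one at that Aucklandiae Radix dose, while VIL1 lay below at both. In Yijin-tang low dose replicate 2 USP37 had 9.16 CPM. The part of this overlap in the VIL1 values was not tested. The libraries keep strand, per the labels, but whether the counting used it is not given in the sources used here.

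Among the extracts with replicates, Soshiho-tang had the most members called against the vehicle. At its high dose VIL1 and DPEP1 fell and KRT20 rose, both against the vehicle and against the low dose. That was 3 of 9 tested members in each comparison, where 7.93% of all genes were called against the vehicle and 6.29% against the low dose.

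VIL1 had 162.5, 165.1 and 162.7 CPM in vehicle cells, 166.4 and 166.3 CPM at the low, 154.4 and 151.0 CPM at the medium and 125.3 and 131.1 CPM at the high dose of Soshiho-tang. High-dose libraries lay below all libraries of the low dose and the vehicle. The log2 fold change was -0.35 ± 0.06 against the vehicle (SE; edgeR adjusted p = 3.05e-05) and -0.38 ± 0.06 against the low dose (edgeR adjusted p = 4.91e-05). KRT20 had 225.2, 248.9 and 245.7 CPM in vehicle cells, 233.0 and 225.9 CPM at the low, 238.0 and 219.4 CPM at the medium and 314.1 and 287.8 CPM at the high dose. Only the high dose stood apart, by 0.33 ± 0.05 against the vehicle (edgeR adjusted p = 2.64e-05) and 0.39 ± 0.06 against the low dose (edgeR adjusted p = 8.45e-06). DPEP1 had 21.6, 20.4 and 22.0 CPM in vehicle cells, 23.3 and 23.0 CPM at the low, 20.7 and 21.1 CPM at the medium and 16.9 and 18.4 CPM at the high dose. It fell by 0.27 ± 0.07 against the vehicle (edgeR adjusted p = 0.00766) and by 0.39 ± 0.08 on the log2 scale against the low dose (edgeR adjusted p = 0.000532).

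High dose replicate 3 of Soshiho-tang is the library with blood markers, and its values for VIL1, KRT20 and DPEP1 lay nearer the vehicle than those of replicate 2. With both libraries that stand apart left out, the high dose is a lone library whose spread is taken from the rest of the series, and all 3 calls held: log2 fold changes were -0.38 ± 0.04 for VIL1, 0.39 ± 0.06 for KRT20 and -0.33 ± 0.08 for DPEP1 against the vehicle. In that fit 12.4% of genes were called against the vehicle and 7.85% against the low dose. The call of DPEP1 against the vehicle was lost without high dose replicate 2 (edgeR adjusted p = 0.147) and with no filter on low counts (edgeR adjusted p = 0.149). At the low dose 0 members were called by edgeR or DESeq2, where 0.101% of genes were, and at the medium dose 0, where 0.237% were. At an unadjusted p under 0.05 both doses held 0 members.

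**Figure D3:**
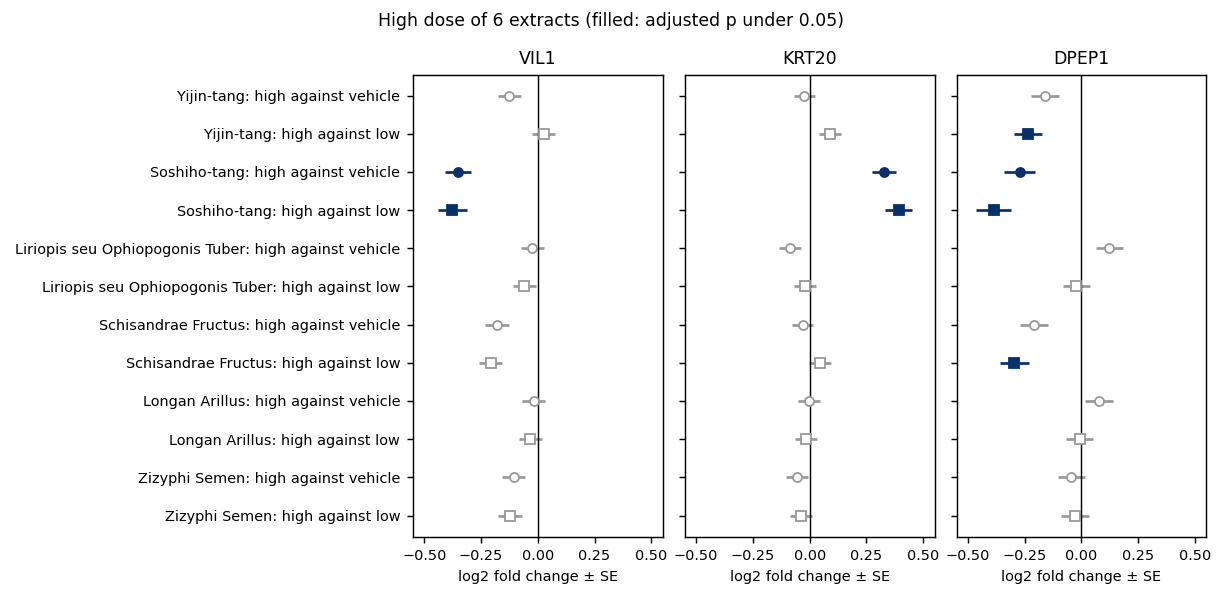
Log2 fold change (horizontal axis, with SE from edgeR's quasi-likelihood fit to 54 libraries) of VIL1, KRT20 and DPEP1 at the high dose of 6 extracts, against the vehicle (circles) and against the low dose (squares). Filled symbols passed an adjusted p of 0.05; Soshiho-tang has filled symbols for all 3 genes, at -0.35 for VIL1 and 0.33 for KRT20 against the vehicle.

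Under Schisandrae Fructus DPEP1 fell at the high dose relative to the low dose. DPEP1 had 21.6, 20.4 and 22.0 CPM in vehicle cells, 23.0, 21.7 and 23.4 CPM at the low, 23.7, 23.5 and 21.6 CPM at the medium and 17.7, 19.2 and 18.6 CPM at the high dose. The high dose lay below every library of the other doses and of the vehicle. The log2 fold change against the low dose was -0.29 ± 0.06 (edgeR adjusted p = 0.0170), the 1 member called where 0.189% of genes were. This call was lost without high dose replicate 1 (edgeR adjusted p = 0.237), high dose replicate 3 (0.0816), low dose replicate 1 (0.118) or low dose replicate 3 (0.185), and with no filter on low counts (0.666).

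VIL1 had 162.5, 165.1 and 162.7 CPM in vehicle cells, 167.3, 165.2 and 167.5 CPM at the low, 149.9, 159.1 and 155.5 CPM at the medium and 140.2, 140.9 and 151.6 CPM at the high dose of Schisandrae Fructus. No high-dose library overlapped the low dose or the vehicle, and the log2 fold changes were -0.21 ± 0.05 (edgeR adjusted p = 0.0910) and -0.18 ± 0.05 (edgeR adjusted p = 0.0938), which did not pass. At the low, medium and high dose against the vehicle 0 members were called by edgeR, where 0.160%, 0.474% and 0.693% of genes were. At an unadjusted p under 0.05 there were 0, 0 and 3 members, and DESeq2 called 0, 0 and 1. Without the 2 libraries that stand apart, neither of them from this extract, VIL1 and DPEP1 passed both against the vehicle (edgeR adjusted p = 4.92e-05 and 0.0137; 6.18% of genes called) and against the low dose (4.58e-06 and 0.00161; 0.519% of genes called).

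At matched high dose, Schisandrae Fructus was compared with Liriopis seu Ophiopogonis Tuber of the same library set. DPEP1 had 17.7, 19.2 and 18.6 CPM under Schisandrae Fructus, against 23.6, 22.5 and 23.5 CPM under Liriopis seu Ophiopogonis Tuber. The log2 difference was -0.33 ± 0.06 (edgeR adjusted p = 0.00663), the 1 member called where 0.0947% of genes were. It was lost without Schisandrae Fructus replicate 1 (edgeR adjusted p = 0.0979), Liriopis seu Ophiopogonis Tuber replicate 1 (0.0722) or replicate 3 (0.0606), and with no filter on low counts (0.277). VIL1 differed by -0.15 ± 0.05 with no overlap between the groups, which passed only without the 2 libraries that stand apart (edgeR adjusted p = 0.00107; 0.421% of genes called).

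Yijin-tang gave calls that rest largely on 1 library. VIL1 had 162.5, 165.1 and 162.7 CPM in vehicle cells, 160.0, 123.0 and 158.4 CPM at the low, 156.7, 156.9 and 161.3 CPM at the medium and 149.0, 148.5 and 152.3 CPM at the high dose. The low value of the low dose is replicate 2, the library that stands apart. VIL1 was called lower at the low dose (log2 fold change -0.15 ± 0.05, edgeR adjusted p = 0.0451), the 1 member where 12.1% of genes were called. Without that replicate the change was -0.04 (edgeR adjusted p = 0.622). The call was also lost without vehicle replicate 1 (0.0927), replicate 2 (0.0987) or replicate 3 (0.0874) and with no filter on low counts (0.227). Without both libraries that stand apart, 0 members were called by edgeR at the low dose, where 1.96% of genes were, although 1 was with all 54 libraries.

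Against its own low dose, the high dose of Yijin-tang had 3 members called where 21.0% of genes were: CDH17 higher, LGALS4 and DPEP1 lower. LGALS4 had 409.6, 391.8 and 409.6 CPM at the high dose, against 450.8, 643.2 and 411.4 CPM at the low dose, so replicate 2 again set the difference. Without it LGALS4 changed by -0.09 (edgeR adjusted p = 0.580), CDH17 by 0.41 (edgeR adjusted p = 0.432) and DPEP1 by -0.15 (edgeR adjusted p = 0.341). CDH17 also lost its call without high dose replicate 1 (0.0784) or 3 (0.0656) or low dose replicate 3 (0.0505), and DPEP1 without high dose replicate 2 (0.0556) and with no filter on low counts (0.0880). Without both libraries that stand apart 0 of 9 members were called, where 0.652% of genes were.

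Against the vehicle, the high dose of Yijin-tang had 0 members called by edgeR where 1.05% of genes were, 2 at an unadjusted p under 0.05 and 0 by DESeq2. VIL1, with a log2 fold change of -0.12 ± 0.05, and DPEP1, with -0.16 ± 0.06, were those 2, and in both genes every high-dose library lay below every vehicle library. Without the 2 libraries that stand apart, VIL1 (-0.12 ± 0.03, edgeR adjusted p = 0.00354) and LGALS4 (-0.16 ± 0.05, edgeR adjusted p = 0.0235) were called, where 7.16% of genes were. At the medium dose 0 members were called by edgeR and DESeq2, where 0.420% of genes were, and 1 had an unadjusted p under 0.05.

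The formulas of the same set were compared at 500 µg/mL. VIL1 had 149.0, 148.5 and 152.3 CPM under Yijin-tang, against 125.3 and 131.1 CPM under Soshiho-tang, a log2 difference of 0.23 ± 0.06 (edgeR adjusted p = 0.0137). KRT20 had 249.9, 221.4 and 236.9 CPM under Yijin-tang, against 314.1 and 287.8 CPM under Soshiho-tang, a difference of -0.35 ± 0.05 (edgeR adjusted p = 1.58e-05). Neither gene overlapped between the formulas, and these were the 2 members called where 3.73% of genes were. VIL1 lost its call without Soshiho-tang replicate 2 (edgeR adjusted p = 0.167) or replicate 3 (0.0820), without Yijin-tang replicate 3 (0.0586) and with no filter on low counts (0.348). Without both libraries that stand apart the 2 genes were called, with 4.93% of all genes. DPEP1 had 18.9, 18.2 and 20.1 CPM under Yijin-tang, against 16.9 and 18.4 CPM under Soshiho-tang, and did not pass.

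VIL1 had 162.5, 165.1 and 162.7 CPM in vehicle cells, 164.6, 165.2 and 166.0 CPM at the low, 166.9, 167.3 and 166.0 CPM at the medium and 152.2, 152.0 and 151.2 CPM at the high dose of Zizyphi Semen. The high dose overlapped no other dose of the extract and no vehicle library, a difference of -7.12% from the vehicle mean. The log2 fold change of -0.11 ± 0.05 against the vehicle and of -0.12 ± 0.05 against the low dose did not pass (edgeR adjusted p = 0.709 and 1). Without the 2 libraries that stand apart both passed (edgeR adjusted p = 0.0238 and 0.0330), with 3.15% and 0.242% of genes called. With all 54 libraries 0 members were called by edgeR or DESeq2 at the low, medium and high dose, where 0.0355%, 0.0296% and 0.160% of genes were, and 0 for high against low dose, where 0.0533% were. At an unadjusted p under 0.05 these comparisons held 0, 0, 1 and 2 members.

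No member passed under Liriopis seu Ophiopogonis Tuber or Longan Arillus. For Liriopis seu Ophiopogonis Tuber 0 members were called by edgeR or DESeq2 at the low, medium and high dose, where 0.491%, 0.373% and 0.450% of genes were, with 1 member each at an unadjusted p under 0.05. Its high dose against its low dose gave 0 called genes in all (0%) by edgeR, with 321 at an unadjusted p under 0.05 and 2 by DESeq2, and no member in any of these. For Longan Arillus 0 members were called by edgeR or DESeq2 at the low, medium and high dose, where 0.107%, 0.0118% and 0.0829% of genes were, and for high against low dose, where 0.0178% were. Longan Arillus against Zizyphi Semen at the high dose also had 0, where 0.0237% of genes were called. At an unadjusted p under 0.05 these Longan Arillus comparisons held 0 members. VIL1 under Longan Arillus had 164.6, 161.4 and 158.3 CPM at the high dose, against 162.5, 165.1 and 162.7 CPM in vehicle cells. In the other 7 of the 8 extracts every high-dose library lay below every vehicle library. The share of all genes that did so is not given here. All 8 extracts share the same vehicle libraries, whose VIL1 range was narrow, so this only describes levels. For Liriopis seu Ophiopogonis Tuber the margin was slight, with a highest value of 162.50 CPM against a lowest vehicle value of 162.52 CPM. Its mean of 160.6 ± 2.26 CPM was near the 161.4 ± 3.16 CPM of Longan Arillus. Polygalae Radix and Aucklandiae Radix have 1 library at that dose.

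The 8 extracts can be set side by side for each member at the high dose. VIL1 lay below all vehicle libraries in 7 extracts and above them in 0. The margin was slight for Liriopis seu Ophiopogonis Tuber, and Polygalae Radix and Aucklandiae Radix rest on 1 library each. DPEP1 lay below all vehicle libraries in 4 extracts and above them in 3, and KRT20 below in 1 and above in 2. LGALS4 lay below in 3 and above in 0, and its group means fell in order of low, medium and high dose in 7 extracts, a sequence that for Yijin-tang includes the deviating low-dose library. MYO1A lay below all vehicle libraries in 6 extracts, but at 0 to 27 counts per library this rests on few reads. These orders are descriptions, since all 8 share the same 3 vehicle libraries. The share of all genes with such orders is not given here.

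**Figure D4:**
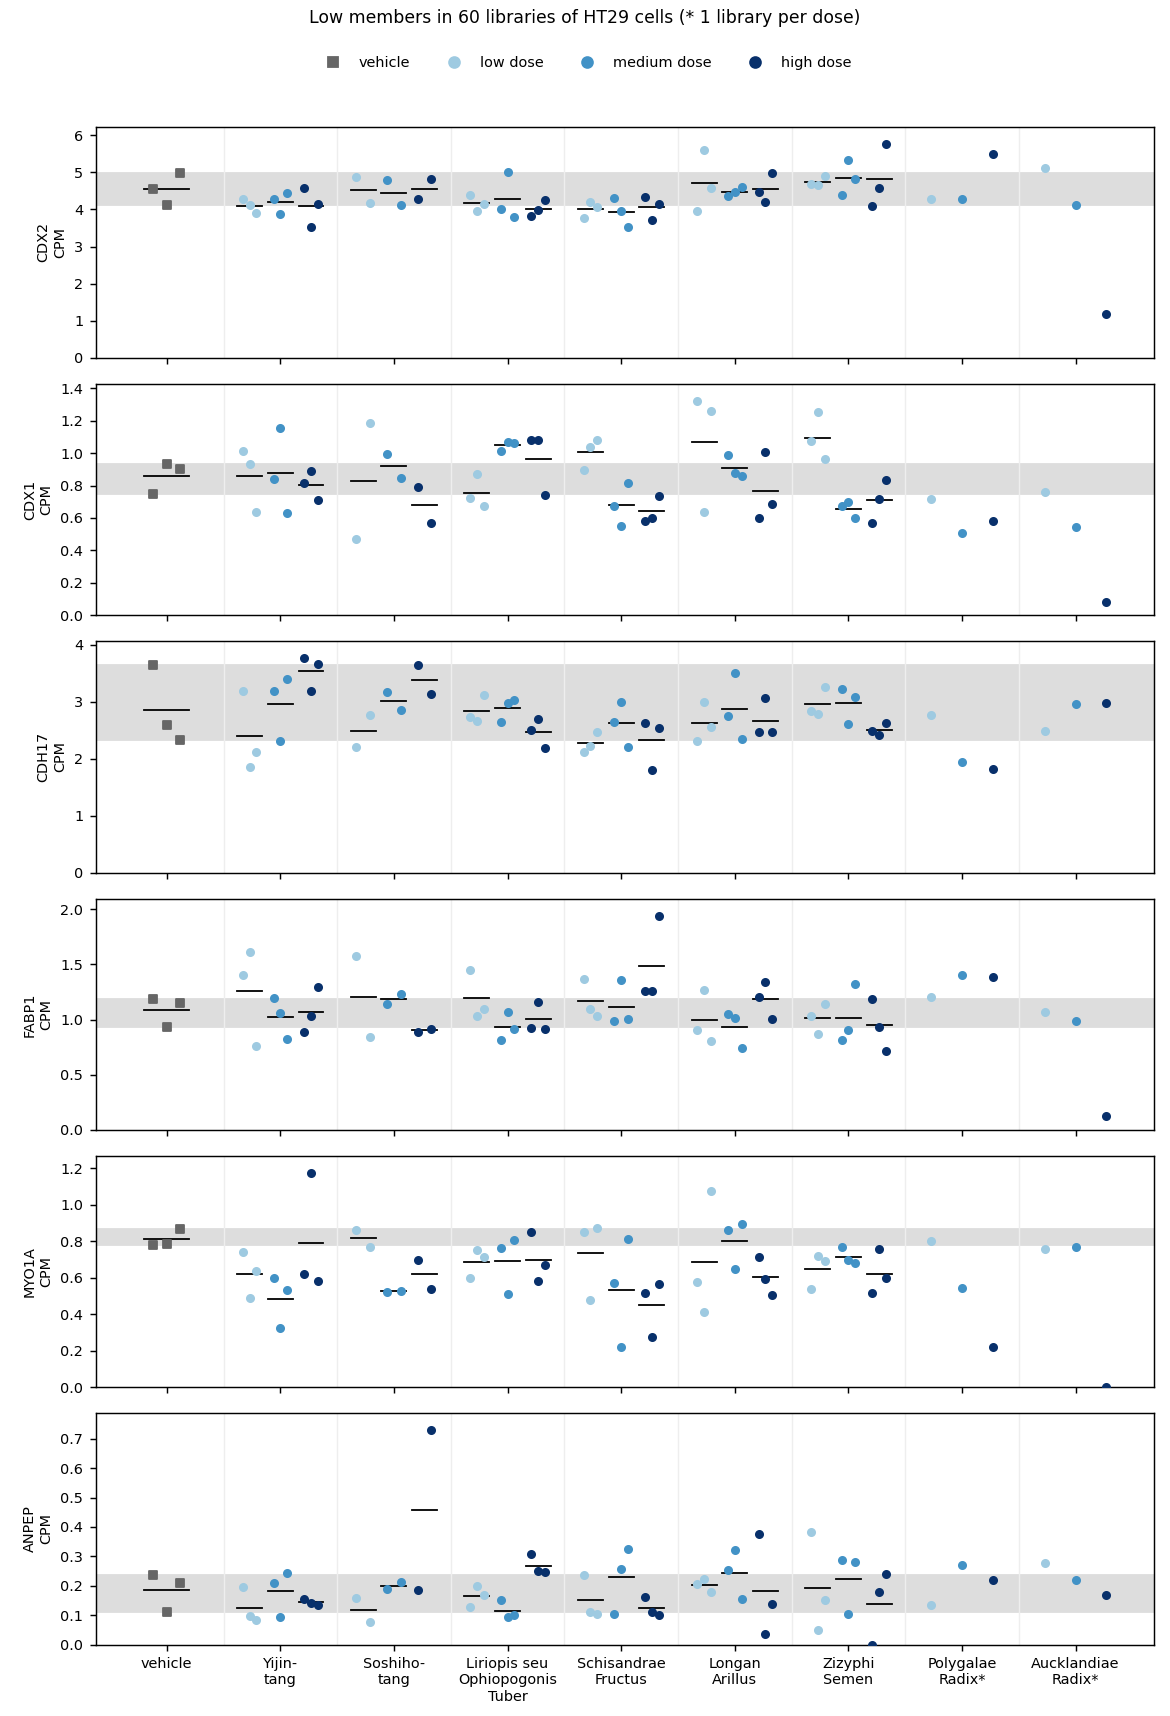
Level (CPM, linear axes from 0) of CDX2, CDX1, CDH17, FABP1, MYO1A and ANPEP in each of the 60 libraries, laid out with the vehicle at the left and rising doses within each extract. Points are libraries, short lines group means, the grey band the vehicle range. CDX2, CDX1, FABP1 and MYO1A drop at 370 µg/mL Aucklandiae Radix, and ANPEP peaks at 0.728 CPM in a Soshiho-tang high dose library.

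The low members varied more between replicates than between most groups. Over the 19 groups with replicates CDX2 averaged between 3.93 ± 0.401 CPM (Schisandrae Fructus medium dose) and 4.84 ± 0.475 CPM (Zizyphi Semen medium dose), and CDX1 between 0.640 ± 0.0836 CPM (Schisandrae Fructus high dose) and 1.10 ± 0.145 CPM (Zizyphi Semen low dose). FABP1 averaged between 0.902 ± 0.0230 CPM (Soshiho-tang high dose) and 1.49 ± 0.393 CPM (Schisandrae Fructus high dose). None of CDX1, CDX2, FABP1 and MYO1A was called by edgeR in any of the 27 comparisons with all 54 libraries. CDX1 reached an unadjusted p under 0.05 at the high against the low dose of Schisandrae Fructus (0.640 ± 0.0836 against 1.00 ± 0.0960 CPM) and of Zizyphi Semen (0.708 ± 0.134 against 1.10 ± 0.145 CPM), with an adjusted p of 1 in edgeR.

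ANPEP, whose product is also the myeloid surface antigen CD13, ranged between 0 and 0.728 CPM. Its highest value was in Soshiho-tang high dose replicate 3, against 0.186 CPM in replicate 2 and 0.238, 0.112 and 0.208 CPM in vehicle cells. In the same replicate 3 the leukocyte genes HLA-DRA and LAPTM5 had 3.93 and 4.69 CPM and the red-cell gene HBB 3.36 CPM. Their part in the ANPEP value was not tested.

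Other genes of the brush border and of intestinal identity were followed in 5 lists. At the high dose of Soshiho-tang against the vehicle, 0 of 27 tested genes of the microvillar cytoskeleton and intermicrovillar adhesion rose and 6 fell, where 7.93% of all genes tested were called. Among these were the scaffold PDZK1 (7.91 ± 0.671 against 12.5 ± 0.711 CPM, log2 fold change -0.67), and ANKS4B (-0.44) and USH1C (-0.32), both parts of the complex that links microvillar tips. Of 16 brush border enzymes and transporters 0 rose and 4 fell, with SLC5A1, the sodium-glucose transporter, at 4.89 ± 0.0647 against 9.71 ± 0.384 CPM (-0.99), GGT1 at -0.50 and CA2 at -0.36. Their medians were -0.03 for the cytoskeleton list and -0.32 for the enzymes and transporters, beside 0.00 over all genes tested.

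In the same comparison, with the same 7.93% of all genes called, 3 of 17 intestinal transcription factors rose and 3 fell, with FOXA2 (-0.62) and HNF4G (-0.51) among the lower and KLF4, a factor of differentiated surface cells, among the higher (0.37). Of 8 lipid-handling genes 2 rose, the lipoprotein receptor SCARB1 (0.36) and the lipid droplet protein PLIN2 (0.32), and 0 fell. Of 24 other surface and differentiation genes 2 rose and 2 fell, CEACAM6 at 0.44 and TMPRSS2 at -0.43. The list medians were -0.03 for the factors, 0.14 for lipid handling and 0.00 for the other genes. CD74, a leukocyte marker that these cells also express, was called higher too (0.88), with 7.50 ± 6.98 against 4.18 ± 0.629 CPM, a mean that the library with blood markers carries. Under Schisandrae Fructus at the high dose FOXA2 (-0.46, edgeR adjusted p = 0.0187) and VDR, the vitamin D receptor (-0.25, edgeR adjusted p = 0.0486), were the called genes among the 17 factors.

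In the library of 370 µg/mL Aucklandiae Radix the same lists, except that of lipid handling, held genes past 2-fold in both directions. Of all genes 17.3% were past 2-fold. PDZK1 had 1.87 CPM against 12.5 ± 0.711 CPM in vehicle cells, ANKS4B 3.44 against 17.9 ± 0.0910 CPM and SLC5A1 1.57 against 9.71 ± 0.384 CPM. Higher were CDHR5, a cadherin of the microvillar tip, at 34.3 against 17.0 ± 1.06 CPM, and DPP4, a brush border peptidase, at 66.8 against 30.5 ± 2.71 CPM. Among the factors KLF4 had 30.5 against 8.19 ± 0.872 CPM and PRDM1 7.55 against 2.04 ± 0.119 CPM, while HNF4G had 11.8 against 34.5 ± 2.47 CPM and FOXA1 74.1 against 155 ± 5.57 CPM. Past 2-fold were 1 higher and 3 lower of 27 cytoskeleton genes, 2 and 5 of 16 enzymes and transporters, 0 and 1 of 8 lipid-handling genes, 2 and 5 of 17 factors, and 1 and 5 of 24 other genes. At 380 µg/mL Polygalae Radix, where 3.90% of all genes were past 2-fold, 0 of 16 enzymes and transporters, 0 of 17 factors, 1 of 8 lipid-handling genes and 1 of 24 other genes were, both of them lower. Of the 27 cytoskeleton genes 1 was, the actin bundler PLS3 at 37.9 against 78.5 ± 4.78 CPM.

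Likeness was measured by Pearson's r of log2 CPM over 50 libraries of the 3 sets with replicates, after subtraction of each set's mean and without Yijin-tang low dose replicate 2. The points share sets, and depth differs between them, so r is a description. They include the Soshiho-tang high dose, which of the 19 groups with replicates had the highest KRT20 mean (301 ± 18.6 CPM). That group also had the lowest VIL1 (128 ± 4.14 CPM) and DPEP1 (17.6 ± 1.02 CPM) means. How much of these correlations it carries was not tested. ANXA13 (0.87) and PTPRO (0.85) were most like VIL1. SLC3A2 and ST3GAL4 (0.83 each) were most like KRT20. For DPEP1 the most alike gene of all was VIL1 itself (0.73), followed by ANXA13 (0.72), and for LGALS4 it was CORO1B (0.67). VIL1 and KRT20 ran against each other (-0.59), and for CDX1, CDX2, CDH17, FABP1 and MYO1A the most alike genes reached between 0.50 (SFI1 with MYO1A) and 0.57 (ATP6V1F with CDX2). Genes named as most alike were picked as the highest r among many. What r noise alone would reach that way was not tested, which weighs most on these low members.

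All members were located on GRCh38 by GENCODE annotation. VIL1 (ENSG00000127831) lies at chr2:218419092-218453295, FABP1 at chr2:88122982-88128116, CDX1 at chr5:150166795-150184558, MYO1A at chr12:57028517-57051198 and CDX2 at chr13:27962137-27971139. ANPEP lies at chr15:89784889-89815401, DPEP1 at chr16:89613308-89638456, KRT20 at chr17:40875941-40885227, LGALS4 at chr19:38801671-38813364 and CDH17 at chr8:94127171-94217303. Counts are per gene over its exons.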

How the data were processed

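RNA was sequenced from 60 libraries of HT29 cells, in 25 groups. Expected counts for 60675 Ensembl IDs were deposited by the authors in 1 table, with no normalization. Tools listed in the submitters' processing notes are STAR 2.7.3a, RSEM 1.3.3, Trim Galore 0.6.5 and FastQC 0.11.9, with the build GRCh38. The annotation release and the strand setting of the counting are not given in the sources used here. Of the values, 89.9% were whole, and the others split reads between genes, which can shift genes with near copies. Symbols were found for 56558 IDs.

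Expected counts were rounded, filtered by filterByExpr (16890 genes) and scaled by TMM, and 1 quasi-likelihood model with the group as its term was fitted in edgeR 4.0.16 (R 4.3.3) to the 54 libraries of the 19 groups with replicates. The biological coefficient of variation was 9.71%. There were 27 comparisons: 18 doses against the vehicle, 6 high against low doses and 3 between extracts of a set at the high dose. Adjusted p-values (Benjamini-Hochberg, over all genes tested) under 0.05 were called. A ± gives the SE of a log2 fold change or the SD of CPM over libraries. Single libraries were set against the vehicle mean with a prior count of 2 and no test, with exact Poisson intervals at the 95% level. The procedure was tested on simulated data.

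The members, the 5 lists and the marker lists (160 entries, all found), the rule for genes named and the alternatives were chosen with earlier results of these data known. All 10 members are named. A list's called genes are named up to 4 per comparison, by largest change, at 5 CPM or more in a group compared; a gene that this rule would name is not reported here. Alternatives were RLE scaling, no filter, a replicate block, DESeq2 1.42.0 and CPM by library totals. Each library of the groups compared was also left out in turn. The libraries Yijin-tang low dose replicate 2 and Soshiho-tang high dose replicate 3 were left out together. Marker lists for 4 cell types were summed per library. Blood and leukocyte markers summed to 958 to 2016 CPM, nearly all of it LYZ, which these cells express. Fibroblast and endothelial markers summed to 2.65 to 13.2 CPM, and hepatocyte markers to 211 to 397 CPM, mostly SERPINA1. Every pair of same-numbered libraries correlated above 0.1 in 0 of 27 comparisons, although single pairs reached 0.22. With 2 libraries in a group their deviations mirror each other, so this rule cannot show whether same-numbered libraries deviated together there.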

Additional observations from a re-analysis of the deposited data

How the results depend on the processing

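Depth limited CDX1, FABP1, MYO1A and ANPEP, which had at most 37, 58, 27 and 23 counts in a library. Single libraries have no replicate check. Of the 14 member calls in the 27 comparisons, 6 passed under every alternative run for them (VIL1 and KRT20 at Soshiho-tang high dose against vehicle, VIL1, KRT20 and DPEP1 against its low dose, and KRT20 between Yijin-tang and Soshiho-tang). The other 8 were lost under at least 1, and 0 of the 143 recomputed values of these calls changed sign. With no filter on low counts, the number of members called was 0 for Yijin-tang low dose against vehicle, 0 for Schisandrae Fructus high against low dose, 1 for Yijin-tang against Soshiho-tang at the high dose and 0 for Schisandrae Fructus against Liriopis seu Ophiopogonis Tuber. DESeq2 called 1 member for Schisandrae Fructus high dose against vehicle and 2 against its low dose. With the 2 libraries that stand apart left out, 2 members were called for Yijin-tang high dose and 2 for Schisandrae Fructus high dose against vehicle, 1 for Zizyphi Semen high dose against vehicle, 1 against its low dose, 2 for Schisandrae Fructus high against low dose, 2 for Schisandrae Fructus against Liriopis seu Ophiopogonis Tuber, and 0 for Yijin-tang low dose against vehicle and for its high against low dose. These libraries raise the spread shared over all groups, so genes called at the high dose of Yijin-tang against vehicle went up to 1240 without them, against 177 with them, and calls of small changes in VIL1 rest on this choice.

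Each library of the groups compared was left out in turn. This gave between 0 and 4 members for Yijin-tang low dose against vehicle and 0 and 4 for its high against low dose. It gave between 0 and 1 for both Schisandrae Fructus high against low dose and against Liriopis seu Ophiopogonis Tuber. Libraries of other groups were not left out singly, although the spread is shared over all groups, so these ranges do not cover them. Where leaving out a library left 1 in a group, as for Soshiho-tang, that library was assumed to vary like the others. With the replicate block, which the labels' numbers alone support, Soshiho-tang high dose kept a count of 3 members against vehicle, and all 27 member counts equalled those without the block; pairs of same-numbered libraries correlated between -0.14 and 0.22.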
